A study of Sorghum propinquum with 2 samples.

Results

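The genes described here are 5 sucrose synthases and 1 vacuolar (soluble acid) invertase of *Sorghum propinquum*, a wild relative of grain sorghum that spreads by rhizomes, which are stems growing underground. They were taken as a fixed list of 6 locus IDs, and all 6 were found among the 24371 genes listed for each library. The deposited tables pair no ID with a name, so the enzyme roles are those that came with the list and were not checked against sequence here. RNA was sequenced from 1 rhizome sample and 1 shoot sample of the same greenhouse-grown vegetative clone, an unnamed accession that tillers freely and makes strong rhizomes, both taken while tillers were forming and with no treatment. Both groups thus share 1 genotype, and the labels do not say how many plants or which parts of each organ were pooled.

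Plants move carbon as sucrose, and a receiving tissue can split it in different ways. Sucrose synthase, in the cytosol, reversibly converts sucrose and UDP into UDP-glucose and fructose, and so supplies a precursor of cellulose and starch while conserving energy. Invertase hydrolyses sucrose irreversibly to glucose and fructose. The vacuolar form does so in the acidic vacuole, where it is known for setting the balance of sucrose and hexoses and for building the sugar load that drives the growth of expanding cells.

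The libraries held 16862624 reads in genes for the rhizome and 17153968 for the shoot. Levels are given in RPKM (reads scaled to 1000 bases of gene length and 1000000 reads of the library), and intervals are 95% intervals that cover counting error only. With 1 library per organ no value has an error between samples and no test between the organs is possible, so differences were judged by size: at least 4-fold, with at least 5 RPKM in the higher library. Of the 12826 genes with 5 RPKM in either library, 9.02% were past this size with the shoot higher and 1.80% with the rhizome higher. The median of their log2 ratios (rhizome over shoot) was 0.20, and the middle 50% of them lay between -0.50 and 0.64. Fewer cells of a type and less RNA per cell cannot be told apart in such bulk samples, and no annotation was at hand to check either organ against marker genes.

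The vacuolar invertase differed most between the organs of the 6 genes, and the sucrose synthases did not all lean the same way. Sb04g000620, the invertase, was 12.3-fold higher in the shoot library. Among the sucrose synthases, 3 had higher values in the shoot, by 1.98-fold to 5.20-fold, and 2 had higher values in the rhizome, by 1.13-fold and 1.79-fold. The invertase was the only one of the 6 past the size rule, under which 5 of the 6 had enough RPKM to be eligible. It is 1 gene, and 9.02% of all eligible genes also passed 4-fold with the shoot higher. Among the 971 genes with 100 RPKM or more in the higher library, as the invertase had, 18.7% did so and 2.57% passed with the rhizome higher.

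**Figure D1:**
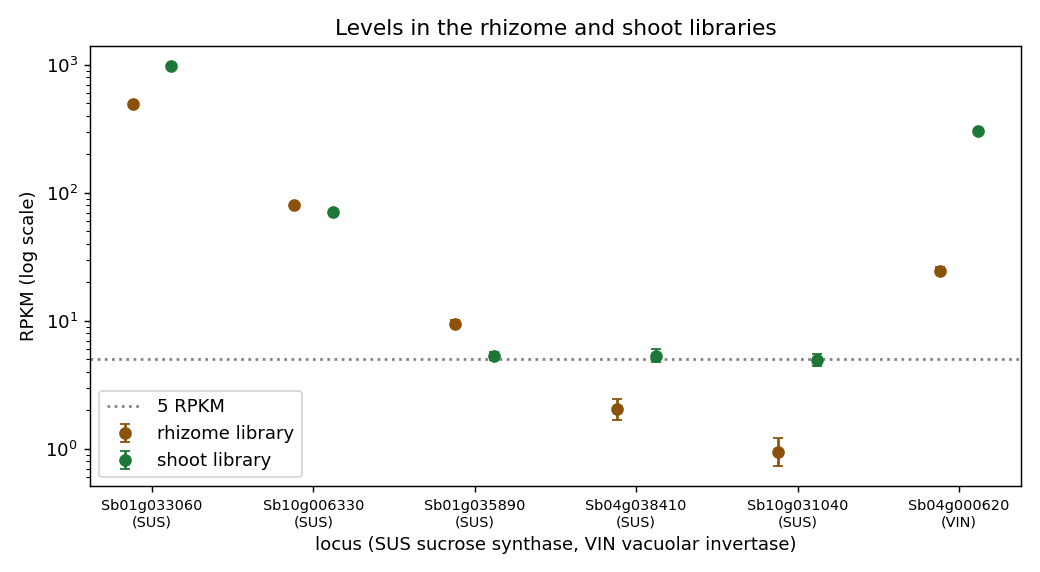
Level of each gene in RPKM (log axis) in the rhizome library (brown) and the shoot library (green), with bars for the 95% Poisson counting interval and a dotted line at 5 RPKM. The invertase is at 24.7 RPKM in the rhizome and 303.5 in the shoot, while Sb10g006330 is at 81.0 and 71.4.

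Sb01g033060 was by far the most abundant sucrose synthase in both organs. It had 38057 reads and 492 RPKM (487 to 497) in the rhizome library. In the shoot library it had 76599 reads and 974 RPKM (967 to 981). By reads it ranked 11th of all listed genes in the rhizome and 2nd in the shoot, and by RPKM 94th and 34th. The shoot level was 1.98-fold higher (1.954 to 2.003), a log2 ratio of rhizome to shoot of -0.98. Of the genes at 5 RPKM or more, 17.03% had a lower ratio than this, so the difference was outside the middle 50% but well short of 4-fold.

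Sb10g006330 was the second sucrose synthase by level in both organs and was nearly level between them. It had 5944 reads and 81.0 RPKM (79.0 to 83.1) in the rhizome library. In the shoot library it had 5332 reads and 71.4 RPKM (69.5 to 73.4). The rhizome level was 1.13-fold higher (1.09 to 1.18), but a scaling that sets the median ratio of genes found in both libraries to 1 turned this to a rhizome level 0.973 times that of the shoot. Its log2 ratio of 0.18 was close to the median of all genes, with 49.0% of genes below it. It was the one gene of the 6 whose ratio lay inside the middle 50%.

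The other 3 sucrose synthases were at or below 9.51 RPKM in both organs, and they differed in direction. Sb01g035890 had 1150 reads and 9.51 RPKM (8.97 to 10.08) in the rhizome library. In the shoot library it had 655 reads and 5.32 RPKM (4.92 to 5.75). The rhizome level was thus 1.79-fold higher (1.62 to 1.97), and 84.0% of genes had a lower ratio. This was the strongest lean to the rhizome among the 6 genes, and it kept its direction under each of the 3 other scalings, at 1.53-fold to 1.76-fold.

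Sb04g038410 leaned to the shoot. It had 115 reads and 2.03 RPKM (1.68 to 2.44) in the rhizome library against 308 reads and 5.35 RPKM (4.77 to 5.98) in the shoot library. The shoot level was 2.63-fold higher (2.12 to 3.29), and 12.9% of genes had a lower ratio of rhizome to shoot. At a threshold of 2-fold, which 16.8% of genes passed with the shoot higher and 11.0% with the rhizome higher, this gene and the invertase passed. Sb01g033060 fell just short of 2-fold when scaled by library totals, with an interval that reached 2.003, and passed it under each of the 3 other scalings.

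Sb10g031040 had the lowest RPKM of the family in both organs. In the shoot its interval overlapped those of Sb01g035890 and Sb04g038410, and Sb04g038410 had fewer reads there (308). It had 65 reads and 0.945 RPKM (0.730 to 1.21) in the rhizome library and 344 reads and 4.92 RPKM (4.41 to 5.47) in the shoot library. The shoot level was 5.20-fold higher (3.98 to 6.89), the largest difference among the sucrose synthases. The lower end of this interval did not reach 4-fold, but the size rule does not use intervals. The gene missed the rule only because its shoot level was just under 5 RPKM. With a minimum of 1 RPKM it passed, as did 9.25% of the 19324 genes then eligible with the shoot higher and 2.73% with the rhizome higher.

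The invertase, Sb04g000620, had 982 reads and 24.7 RPKM (23.2 to 26.3) in the rhizome library. In the shoot library it had 12282 reads and 303.5 RPKM (298.2 to 308.9). The shoot level was 12.3-fold higher (11.5 to 13.1), and 4.12% of genes had a lower ratio of rhizome to shoot. It ranked 210th of all genes by RPKM in the shoot and 3378th in the rhizome. In the rhizome, where it was lower, 86.1% of listed genes were still below it in RPKM. Of the 210 genes at or above its shoot RPKM, itself among them, 48 (22.9%) had a ratio of rhizome to shoot as low. A shift of this size was thus not rare among genes this abundant in the shoot, though choosing genes by shoot level itself favours low ratios.

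**Figure D2:**
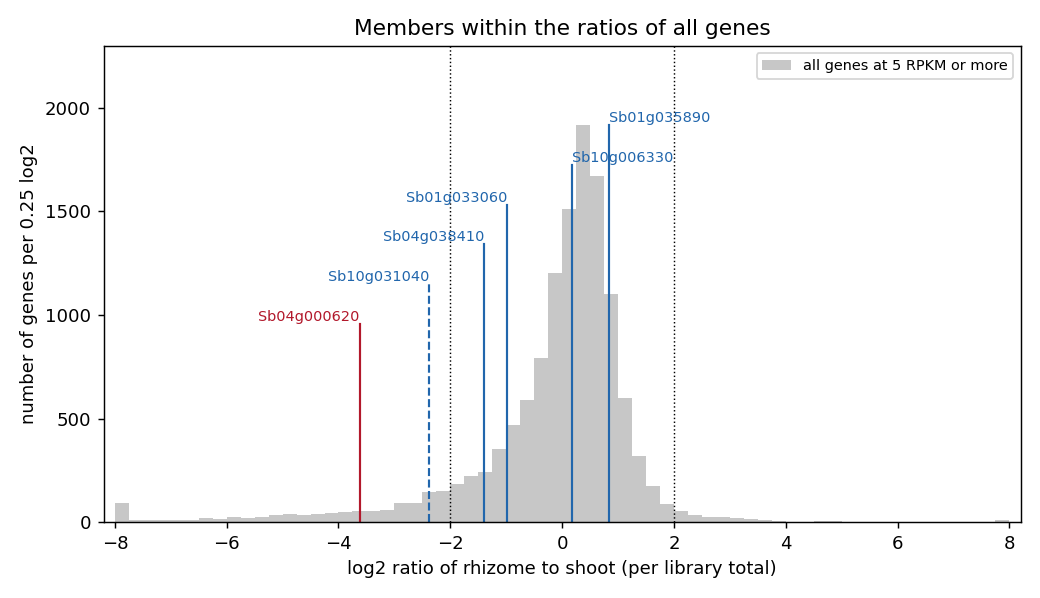
Number of genes (grey bars) by log2 ratio of rhizome to shoot, for the 12826 genes with 5 RPKM in either library, with genes beyond 8 on either side placed in the end bars. Vertical lines mark the sucrose synthases (blue; dashed for Sb10g031040, which is under 5 RPKM) and the invertase (red), and dotted lines mark 4-fold. The invertase lies at -3.62 in the shoot-side tail and Sb10g006330 at 0.18 near the peak.

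The order of the levels per length differed between the organs. In the rhizome it ran Sb01g033060, Sb10g006330, invertase, Sb01g035890, Sb04g038410, Sb10g031040, and no neighbouring intervals in this order overlapped. These intervals do not cover error in the deposited lengths. By reads without length, Sb01g035890 (1150) stood above the invertase (982) in the rhizome. In the shoot the order per length ran Sb01g033060, invertase, Sb10g006330, then Sb04g038410, Sb01g035890 and Sb10g031040, whose intervals overlapped one another. The invertase and Sb10g006330 therefore stood in opposite order: in the rhizome Sb10g006330 was 3.28-fold above the invertase, and in the shoot the invertase was 4.25-fold above Sb10g006330. Sb01g035890, which was 10.1-fold above Sb10g031040 in the rhizome, was 1.08-fold above it in the shoot.

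One gene made up most of the sucrose synthase transcripts. Sb01g033060 made up 84.0% of the summed family RPKM in the rhizome and 91.8% in the shoot. As a share of the family reads it was 84.0% (exact binomial interval 83.6% to 84.3%) in the rhizome and 92.0% (91.8% to 92.2%) in the shoot. Sb10g006330 made up 13.8% of the family RPKM in the rhizome and 6.73% in the shoot. The remaining 3 genes were each at 1.62% or less in either organ. The rhizome family was thus somewhat less dominated by Sb01g033060, whose level lay 6.07-fold above that of Sb10g006330 there and 13.6-fold above it in the shoot.

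Summed over the 5 genes, sucrose synthase took 45331 reads (0.269% of the library) in the rhizome and 83238 reads (0.485%) in the shoot. The summed reads were 1.81-fold higher in the shoot (1.78 to 1.83) after scaling by library totals. Without Sb01g033060 the other 4 genes summed to 7274 reads in the rhizome and 6639 in the shoot, and the direction turned, with the rhizome 1.11-fold higher (1.078 to 1.152). That reversal depended on scaling by library totals: with the median ratio of genes found in both libraries set to 1, a combination added after seeing the data, the rhizome sum of the 4 genes was 0.956 times that of the shoot (0.924 to 0.988).

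The balance of transcripts for the routes of sucrose cleavage differed between the organs more than summed sucrose synthase itself did. This followed from the invertase, whose shoot RPKM was 12.3-fold higher, against 1.81-fold for summed sucrose synthase. The invertase route is represented here by 1 vacuolar gene. No other invertase was on the list, and ratios of transcripts do not measure cleavage. In the rhizome, summed sucrose synthase was at 586 RPKM and the vacuolar invertase at 24.7, a ratio of 23.7 (22.3 to 25.3). In the shoot they were at 1061 and 303.5 RPKM, a ratio of 3.49 (3.43 to 3.56). Sucrose synthase transcripts outnumbered invertase transcripts per length in both organs, and the ratio was 6.79 times as high in the rhizome (6.35 to 7.25). Put as a share of the 6 genes' summed RPKM, the invertase was 4.04% in the rhizome and 22.2% in the shoot.

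**Figure D3:**
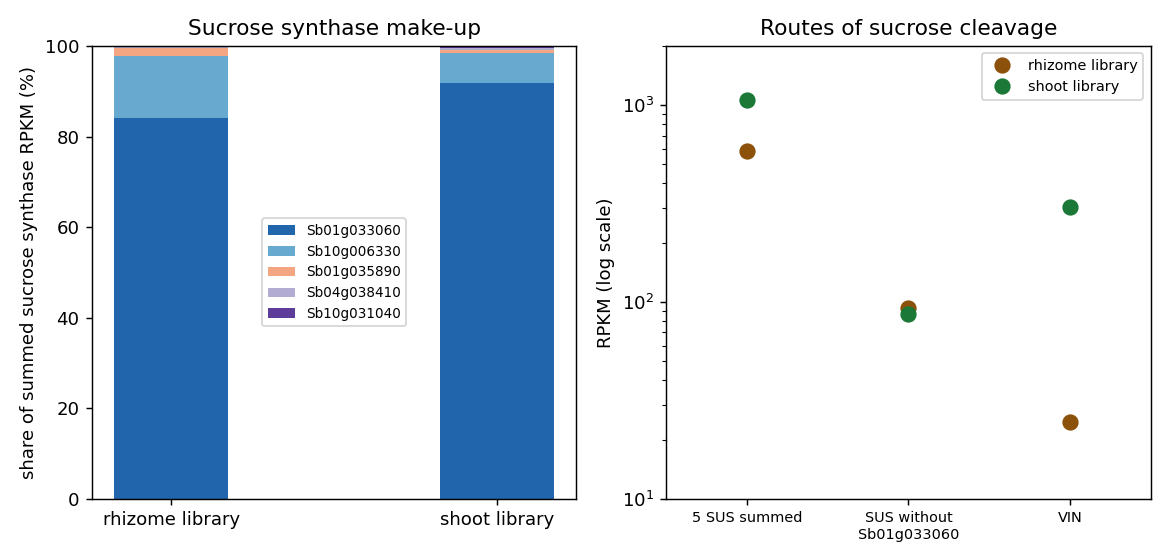
Left, share (%) of each sucrose synthase in the summed sucrose synthase RPKM of each library. Right, RPKM (log axis) of the 5 sucrose synthases (SUS) summed, of the family without Sb01g033060, and of the vacuolar invertase (VIN), in the rhizome (brown) and shoot (green) libraries. The family without Sb01g033060 is at 93.5 and 87.0 RPKM, above the invertase in the rhizome and below it in the shoot.

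The ratio of the routes within an organ depended on the deposited gene lengths, but its change between organs did not depend on the scaling of the libraries. Taken on reads with no length, the ratio of summed sucrose synthase to invertase was 46.2 in the rhizome and 6.78 in the shoot, and the rhizome value was still 6.81 times that of the shoot (6.38 to 7.28). The deposited lengths were 2359 bases for the invertase and 3358 to 7171 bases for the sucrose synthases. How they were measured is not given in the sources used here. With Sb01g033060 left out, the ratio on RPKM was 3.79 in the rhizome and 0.287 in the shoot, so the invertase was then above the sum of the other 4 in the shoot alone.

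The invertase had the lowest ratio of rhizome to shoot of the 6 genes. Each sucrose synthase was therefore bound to be lower relative to it in the shoot than in the rhizome. The amounts differed between genes. The change in the ratio to invertase was 22.0-fold for Sb01g035890 (19.6 to 24.7), 13.9-fold for Sb10g006330 (12.9 to 15.0) and 6.21-fold for Sb01g033060 (5.82 to 6.64). It was 4.67-fold for Sb04g038410 (3.73 to 5.84) and 2.36-fold for Sb10g031040 (1.80 to 3.10). These comparisons need neither gene length nor library scaling. Across all 15 pairs of the 6 genes, the interval of the ratio of ratios excluded 1 in 15. Taken 1 pair at a time, the genes' rhizome-to-shoot ratios thus differed by more than the counting error of independent reads. No allowance was made for the number of pairs. The interval nearest to 1 was that of Sb01g033060 and Sb04g038410, at 1.33-fold (1.07 to 1.65). The widest gap within the sucrose synthases was between Sb01g035890 and Sb10g031040, at 9.29-fold (7.01 to 12.3).

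Similar copies of a gene may exchange reads at alignment, and whether reads of the abundant Sb01g033060 were assigned to its relatives was not tested. Per 1000 reads of Sb01g033060 there were 1.71 reads of Sb10g031040 in the rhizome and 4.49 in the shoot, and 3.02 and 4.02 reads of Sb04g038410. The same quantity was 30.2 and 8.55 for Sb01g035890, and 156 and 69.6 for Sb10g006330. The proportions differed least between the libraries for Sb04g038410, by 1.33-fold (1.07 to 1.65). They are given as values only.

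Loci next to the 6 genes in ID order were mostly higher in the rhizome, as were most genes. Of the 24 nearest listed loci, 2 on each side of each gene, 18 had 5 RPKM in either library, and of these 12 had higher values in the rhizome and 6 in the shoot. Over all genes at 5 RPKM, 59.4% had higher values in the rhizome, so this split was near the background. The 3 neighbours of the invertase at 5 RPKM had values 1.29-fold, 1.68-fold and 1.89-fold higher in the rhizome, small differences in the more common direction. Past the size rule were 4 of the 18: Sb01g033070, Sb01g033080 and Sb10g031020 with the shoot higher, and Sb01g033056 with the rhizome higher. Of all genes, 9.02% and 1.80% passed in these 2 directions. Of the 4 loci, 3 lay beside Sb01g033060 and had few reads in their lower library. The locus just before it had 44 rhizome reads and 6 shoot reads, and the ones after it had 7 and 3 rhizome reads against 87 and 258 shoot reads. All of these counts are small beside those of Sb01g033060 itself.

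**Figure D4:**
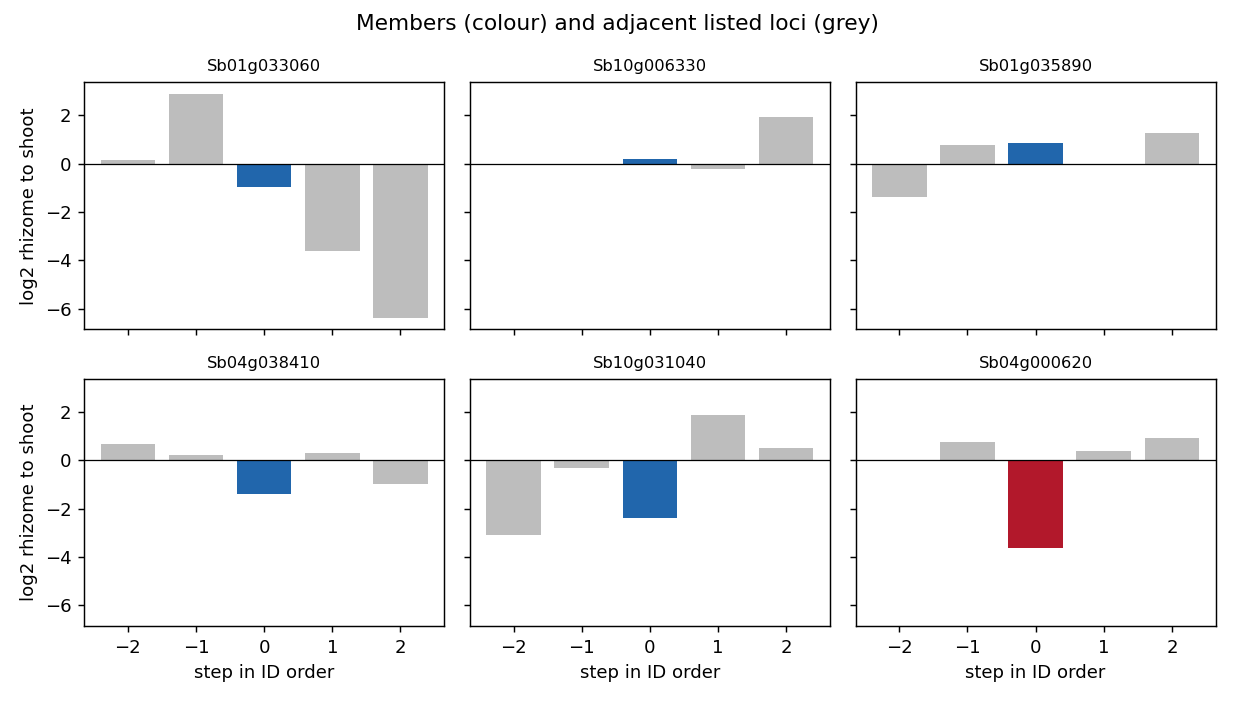
Log2 ratio of rhizome to shoot for each of the 6 genes (coloured, step 0) and the nearest listed loci in ID order (grey, steps of 1 and 2 on each side), with neighbours under 1 RPKM in both libraries left blank. The invertase Sb04g000620 is at -3.62 and its plotted neighbours are above 0, as are 59.4% of all genes at 5 RPKM.

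Few genes lay near Sb01g033060 or the invertase in both level and ratio, but few genes were as abundant. By RPKM in the shoot, Sb01g033060 ranked 34th and the invertase 210th of all listed genes. The counts below were not compared with those of other genes at the same level, so they do not show an unusual profile. Within a distance of 0.25 on the log2(RPKM + 1) scale of both libraries, among genes at 5 RPKM or more, there were 3 other genes near the invertase and 1 near Sb01g033060. The numbers were 84 for Sb10g006330, 397 for Sb01g035890, 69 for Sb04g038410 and 25 for Sb10g031040. With 2 libraries likeness covers a level and a ratio only, so these genes are counted and not named.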

How the data were processed

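Illumina RNA libraries were made from TRIzol-extracted total RNA, per the labels' protocols. Not given in the sources used here are the aligner, counting program, genome build, annotation and use of strand. The deposited read counts per gene are unnormalized integers. The deposited RPKM values equal those recomputed from counts, deposited lengths and the total of the count column to within 0.0001, per the file headers and values.

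Samples were grouped by tissue label. The members and lists were chosen with earlier results of these data known. No count model was fitted, since 1 library per organ leaves it without residual degrees of freedom. Ratios of counts per library total have exact conditional binomial intervals, levels exact Poisson intervals, and ratios between genes large-sample intervals on the log scale, all at 95% and for counting error only. Reads carry no molecular identifiers in the labels, so they may not be independent molecules. The size rule and the named-gene rule (all 6 members; unnamed counts of similar genes; 2 neighbours on each side) apply to all genes. Lists of other pathway genes and tissue markers, defined by product name, could not be filled, since no annotation of the IDs was at hand.

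Alternatives were median-of-ratios scaling over the 16710 genes at 1 RPKM in both libraries, TMM scaling (edgeR 4.0.16, R 4.3.3) and library totals that omit the 100 genes with most reads in either library, each applied to the rhizome values with shoot values kept. Others were a pseudocount of 1 RPKM, other folds and minimums, reads in place of RPKM, and leaving out Sb01g033060. The code was tested on simulated data. Scripts ran in Python 3.11.15 with scipy 1.17.1, numpy 2.4.6, matplotlib 3.10.9 and pandas 2.3.3.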

Additional observations from a re-analysis of the deposited data

How the results depend on the processing

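Values here are log2 ratios of rhizome to shoot unless stated. Median-of-ratios scaling lowers each by 0.22 and gave -1.21 for Sb01g033060, 0.62 for Sb01g035890, -3.84 for the invertase and -1.07 for the summed sucrose synthases, and reversed Sb10g006330 to -0.040. TMM scaling gave -1.16, 0.66, -3.79 and -1.02 for the same, and 0.0093 for Sb10g006330. Without the 100 most abundant genes, Sb01g033060 was at -1.003 and the sum at -0.87. A pseudocount of 1 RPKM gave -1.07 for Sb04g038410 and -1.61 for Sb10g031040. The sum without Sb01g033060 reversed to 0.16, and with median-of-ratios scaling as well, added after seeing the data, it was -0.065. The log2 ratio of sucrose synthase to invertase was 4.57 in the rhizome and 1.81 in the shoot. It was 5.53 and 2.76 on reads, 4.32 and 1.68 for Sb01g033060 alone, and 1.92 and, reversed, -1.80 without that gene. The rhizome-minus-shoot difference of these log2 ratios, 2.76, became 2.64 for Sb01g033060 alone and 3.72 without it. Members past the size rule were 2 at 2-fold (Sb04g038410 added) and 2 at 1 RPKM (Sb10g031040 added), and 1 under the other alternatives run. On reads in place of RPKM, the family shares in the rhizome were 2.54% for Sb01g035890, 0.254% for Sb04g038410 and 13.1% for Sb10g006330. In the shoot they were 92.0% for Sb01g033060, 0.787%, 0.370% and 6.41% for those 3 in the same order, and 0.413% for Sb10g031040. No paired analysis was possible because there was a single library of each organ, so none was left out in turn and variation between plants is unknown. Coding lengths were not run, since no protein sequences were at hand. Depth limits Sb10g031040 most, with 65 reads in the rhizome.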
